A study of Mus musculus with 8 samples.

Results

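The guanylate-binding proteins described here are Gbp2, Gbp3, Gbp4, Gbp5, Gbp6, Gbp7, Gbp8 and Gbp9, 8 genes named by symbol and set in a table of 43629 mouse genes. The set was chosen by measured values, the fold changes between the groups of libraries, because Gbp8 and Gbp3 moved in opposite directions, so the members' values in that comparison are a description and carry no test. Of the 8 members, 6 had a row in the count table under their Ensembl identifier and all 6 passed the filter on low counts. Expression of Gbp5 and Gbp6 was not analysed here.

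RNA was measured in 8 libraries of mouse spleen B cells, sorted after enrichment on the surface markers B220, CD93, CD21 and CD23. The cells were labelled follicular, the name of the recirculating B cells of lymphoid follicles. The 4 libraries labelled GFP-ZFP36L1 had the genotype Rosa26GFPZFP36L1 CD23cre/+, in which a Cre recombinase driven from the CD23 gene of mature B cells acts on an allele at the Rosa26 locus. The 4 control libraries had the genotype Rosa26GFPZFP36L1 without Cre, so both groups carried the allele, and the presence of Cre and expression of the fusion protein cannot be told apart. Whether libraries within a group derive from different animals is not in the labels, and every p-value therefore reflects the spread between these libraries alone, which may be technical. ZFP36L1 recognises AU-rich elements in the 3' UTRs of messenger RNAs and speeds up their decay.

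Guanylate-binding proteins are large GTPases of the dynamin superfamily whose genes are switched on by interferons, above all interferon gamma, through transcription factors such as IRF1. They assemble on the vacuoles and membranes of intracellular microbes and help to break them open, and several feed microbial products to the inflammasome. In mice their genes lie in a cluster on chromosome 3, whose loss makes mice more susceptible to Toxoplasma gondii, and in a cluster on chromosome 5.

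In GRCm38, the genome build of the deposited data, the chromosome 3 cluster ran from 142493978 to 142638008 on the plus strand. It held Gbp5, Gbp7, Gbp3, Gbp2b and Gbp2 within 144031 bp. The chromosome 5 cluster ran from 105014150 to 105346472 on the minus strand and held Gbp8, Gbp9, Gbp4, Gm43302, Gbp10, Gbp6 and Gbp11 within 332323 bp. Gbp8 (ENSMUSG00000034438, chr5:105014150-105139540) spanned the whole Gbp9 locus (ENSMUSG00000029298, chr5:105077630-105139539) and most of Gbp4 (ENSMUSG00000079363, chr5:105115767-105139586), and the annotated first exons of the 3 genes overlapped. The exon bases that Gbp8 shared with another gene on its strand numbered 61 of 3443.

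RefSeq promoters, taken as 250 bases before to 50 bases after a transcript start in GRCm38.p6, were given for 5 genes of the chromosome 3 cluster, 4 of them members (Gbp2, Gbp3, Gbp5 and Gbp7), and not for Gbp4, Gbp6, Gbp8 or Gbp9. Each was searched on both strands for the core of the interferon-stimulated response element, TTTCNNTTT, to which STAT and IRF complexes bind, and for the interferon gamma-activated site, TTCNNNGAA, which mediates responses to that cytokine. The response element core was in 5 of the 6 windows of these genes, against 10.6% of 32851 mouse promoters. All 5 genes held it in at least 1 window. The activated site was in the windows of Gbp5 and Gbp7, against 8.3% of all promoters. Whether these motifs relate to fold changes was not tested. The Gbp3, Gbp7 and Gbp2 windows are shown, picked with the log2 fold changes of these neighbours known, -0.38, 0.30 and 0.11. All are on the plus strand of chromosome 3, at chr3:142559794-142560093, chr3:142530086-142530385 and chr3:142620413-142620712 in that order, with the motifs in capitals:
Gbp3: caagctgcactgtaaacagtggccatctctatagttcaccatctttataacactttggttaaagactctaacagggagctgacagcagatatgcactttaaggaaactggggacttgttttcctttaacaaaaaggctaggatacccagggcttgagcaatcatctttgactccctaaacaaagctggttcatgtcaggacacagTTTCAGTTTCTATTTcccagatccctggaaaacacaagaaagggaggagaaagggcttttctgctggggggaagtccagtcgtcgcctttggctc
Gbp7: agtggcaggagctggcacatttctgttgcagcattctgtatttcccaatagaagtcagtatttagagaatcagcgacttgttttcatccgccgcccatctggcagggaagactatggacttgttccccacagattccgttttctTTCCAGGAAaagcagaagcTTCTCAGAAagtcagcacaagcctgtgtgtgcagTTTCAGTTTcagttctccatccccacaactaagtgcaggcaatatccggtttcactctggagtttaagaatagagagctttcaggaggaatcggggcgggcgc
Gbp2: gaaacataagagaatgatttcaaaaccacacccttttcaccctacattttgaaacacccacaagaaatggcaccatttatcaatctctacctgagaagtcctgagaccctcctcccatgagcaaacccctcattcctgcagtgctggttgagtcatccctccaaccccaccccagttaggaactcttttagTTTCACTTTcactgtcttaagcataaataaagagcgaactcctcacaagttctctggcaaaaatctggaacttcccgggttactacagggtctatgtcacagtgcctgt

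The response element core began at positions -45 and -39 in Gbp3, where the 2 copies overlap, at -53 in Gbp7 and at -59 in Gbp2, counted from the transcript start. In Gbp7 the activated sites began at -106 and -87. Gbp2b held the core at -137, and Gbp5 held overlapping cores at -165 and -159 with activated sites at -245 and -52. A second RefSeq window of Gbp3 held neither motif. A match is a description of these letters and not a shown site.

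The heptamer UAUUUAU, the core sequence bound by ZFP36 family proteins, was searched as TATTTAT on the sense strand of the annotated 3' UTRs. It occurred in Gbp4 and Gbp9 among the members and in 26.9% of 21285 mouse genes with a 3' UTR. The Gbp8, Gbp3, Gbp7 and Gbp2 3' UTRs, of 796, 517, 3575 and 515 bases, held none. They held 2, 2, 7 and 0 copies of the shorter pentamer ATTTA, in that order. Binding by ZFP36L1 was not tested. The sites are shown with the heptamer in capitals, from the minus strand of chromosome 5 in GRCm38, by their position in 3' UTRs of 2511 bases in Gbp4 and 2425 bases in Gbp9:
Gbp4 at 1267: attttatatcaTATTTATttatttgcaaa
Gbp4 at 1271: tatatcatattTATTTATttgcaaagtaa
Gbp9 at 1226: tacatcacattTATTTATttgcaaagtaa
Gbp9 at 1976: cagtgtgatctTATTTATaaaatagttag

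The sites at 1267 and 1271 of Gbp4 overlap. The sites at Gbp4 1271 and Gbp9 1226 are followed by the same bases, and so is the 1 heptamer in the 3' UTR of Gm43302, a gene of the same cluster that is no member and was chosen after its values were seen.

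Total counts were 38947758 to 48328512 in the libraries labelled GFP-ZFP36L1 and 40976668 to 51024233 in the controls. Levels are counts per 1000000 counts (CPM) on scaled library sizes. The label was checked with Zfp36l1 itself, which was lower in the labelled libraries, at 439 ± 28.6 CPM against 547 ± 35.1 CPM in the controls (SD, n = 4 each). The edgeR quasi-likelihood test, adjusted by Benjamini-Hochberg, gave a log2 fold change of -0.32 ± 0.07 (SE; adjusted p = 0.0348), a call that was lost when any 1 library other than labelled replicate 1 was left out. Gt(ROSA)26Sor, a noncoding gene of the Rosa26 locus, had 3.90 ± 0.604 CPM against 16.9 ± 2.58 CPM in the controls. Across 13035 tested genes, 407 or 3.12% were called at an adjusted p under 0.05, of which 238 or 1.83% were higher and 169 or 1.30% lower in the labelled libraries. The count ran from 79 to 948 when 1 library was left out.

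The controls give the level of each gene in follicular B cells without Cre. Per kilobase of annotated exon, the order of control levels was Gbp9 at 34.6 ± 1.80 CPM per kb, Gbp3 at 24.5 ± 1.08, Gbp2b at 20.7 ± 0.450, Gbp4 at 15.6 ± 0.601, Gbp2 at 8.08 ± 0.373, Gbp7 at 6.16 ± 0.826, Gm43302 at 2.08 ± 0.513 and Gbp8 at 0.856 ± 0.0678 (SD, n = 4). No neighbours in that order overlapped between control libraries. In the libraries labelled GFP-ZFP36L1 the order was Gbp9, Gbp2b, Gbp3, Gbp4, Gbp2, Gbp7, Gm43302 and Gbp8. Their ranges overlapped between Gbp3 and Gbp4, between Gbp2 and Gbp7, between Gbp7 and Gm43302, and between Gm43302 and Gbp8. Gbp8 stood last in both groups, at 2.62 ± 0.960 CPM per kb in the labelled libraries. Exon lengths are from GENCODE and may differ from those behind the deposited counts.

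**Figure D1:**
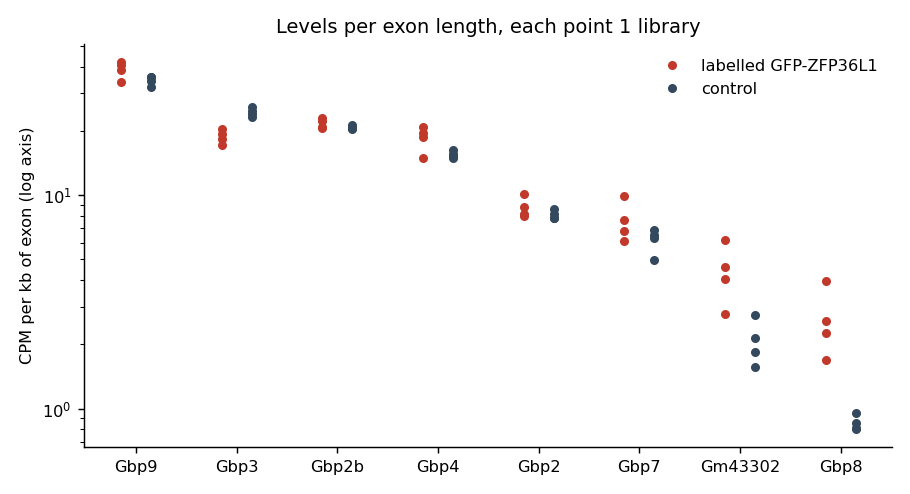
Level in CPM per kb of exon on a log axis for each gene, with 1 point per library, libraries labelled GFP-ZFP36L1 left and controls right within a gene. Gbp9 averaged 38.9 CPM per kb in the labelled libraries and 34.6 in the controls, and Gbp8 averaged 2.62 and 0.856.

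Gbp8, a chromosome 5 member whose function is little characterised, had 5.85, 7.76, 8.90 and 13.6 CPM in replicates 1 to 4 of the libraries labelled GFP-ZFP36L1, against 2.94, 2.78, 3.28 and 2.80 CPM in control replicates 1 to 4. These levels rested on 254, 378, 386 and 559 counts in the labelled libraries and 123, 138, 138 and 114 counts in the controls. Every labelled library lay above every control, and labelled replicate 4 was the highest. The means were 9.03 ± 3.31 and 2.95 ± 0.234 CPM (SD, n = 4 each), a fold of 3.06 and a log2 fold change of 1.61 ± 0.22 (SE). The coefficient of variation among the labelled libraries was 36.6%. In the bulk RNA of a sort, fewer or more cells with a transcript cannot be told apart from less or more RNA per cell. Of the 100-base windows in Gbp8 transcripts, 4.39% also occurred in other genes of the cluster, and no source used here states how the counting treated such reads.

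Gbp3, a member of the chromosome 3 cluster (ENSMUSG00000028268, chr3:142560026-142573209), had 66.8, 56.2, 63.2 and 59.9 CPM in the libraries labelled GFP-ZFP36L1, against 76.0, 78.5, 84.2 and 81.2 CPM in the controls. All 4 labelled libraries lay below all 4 controls. The means were 61.5 ± 4.55 and 79.96 ± 3.54 CPM (SD, n = 4 each), a fold of 0.769 and a log2 fold change of -0.38 ± 0.06 (SE). Only 0.69% of its 100-base windows occurred in another gene, Gbp7. Expressed as a share of Gbp3 on the CPM scale, which is not per length, Gbp8 stood at 8.75%, 13.8%, 14.1% and 22.7% in the labelled libraries and at 3.86%, 3.54%, 3.90% and 3.45% in the controls.

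Gbp9, the chromosome 5 member with the highest level per kilobase, had 176, 211, 199.9 and 217 CPM in the libraries labelled GFP-ZFP36L1, against 166, 186, 177 and 186 CPM in the controls. The groups overlapped through labelled replicate 1, and the log2 fold change was 0.17 ± 0.07 (SE). Gbp4, which overlaps Gbp9 and Gbp8, had 112, 146, 139.8 and 157 CPM in the labelled libraries, against 112, 123, 115 and 117 CPM in the controls, a log2 fold change of 0.25 ± 0.09 (SE). Labelled replicate 1 lay within the control range and the other 3 labelled libraries lay above it. Gbp9 and Gbp4 had the closest profiles of any pair in the family. The root mean square distance between their centred log2 levels over the 8 libraries was 0.0644. The farthest pair was Gbp3 and Gbp8, at 1.02. This distance includes the difference between the groups, and their opposite fold changes chose the set.

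Gbp7 (ENSMUSG00000040253, chr3:142530342-142550149), which in mice takes part in host defence against bacteria in macrophages, had 34.4, 38.0, 42.8 and 55.6 CPM in the libraries labelled GFP-ZFP36L1, against 28.0, 36.4, 35.3 and 38.7 CPM in the controls. The groups overlapped, with the highest value in labelled replicate 4 and the lowest in control replicate 1. Its log2 fold change was 0.30 ± 0.15 (SE), and 10.01% of its 100-base windows also occurred in other genes, chiefly the overlapping pseudogene Gm43802. Gbp2 (ENSMUSG00000028270, chr3:142620602-142638008), which in mice coats Toxoplasma vacuoles and is needed for AIM2 inflammasome responses to Francisella, had 25.4, 20.02, 22.1 and 20.5 CPM in the labelled libraries. The controls had 20.5, 19.7, 21.6 and 19.6 CPM of Gbp2, which overlapped, and the log2 fold change was 0.11 ± 0.08 (SE).

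Gbp2b lies between Gbp3 and Gbp2 and is no member. It had 63.2, 59.0, 58.1 and 65.3 CPM in the libraries labelled GFP-ZFP36L1, against 57.7, 58.1, 60.4 and 58.0 CPM in the controls. The groups overlapped, and the log2 fold change of 0.07 ± 0.05 (SE) did not pass edgeR's quasi-likelihood test (adjusted p = 0.544). Gm43302 (ENSMUSG00000079362, chr5:105214907-105293695) spans the Gbp10 and Gbp6 loci and shares 98.81% of its 100-base windows with other genes, so its reads cannot be assigned to either. It had 11.93, 19.9, 17.5 and 26.7 CPM in the labelled libraries, against 6.76, 7.90, 9.25 and 11.89 CPM in the controls, a log2 fold change of 1.09 ± 0.25 (SE). The groups touched without overlap, at labelled replicate 1 and control replicate 4. Gm43302 did not pass edgeR's quasi-likelihood test (adjusted p = 0.0528) and was called in 7 of 18 alternatives. Gbp11, annotated as a polymorphic pseudogene, had 0 counts in all 8 libraries.

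**Figure D2:**
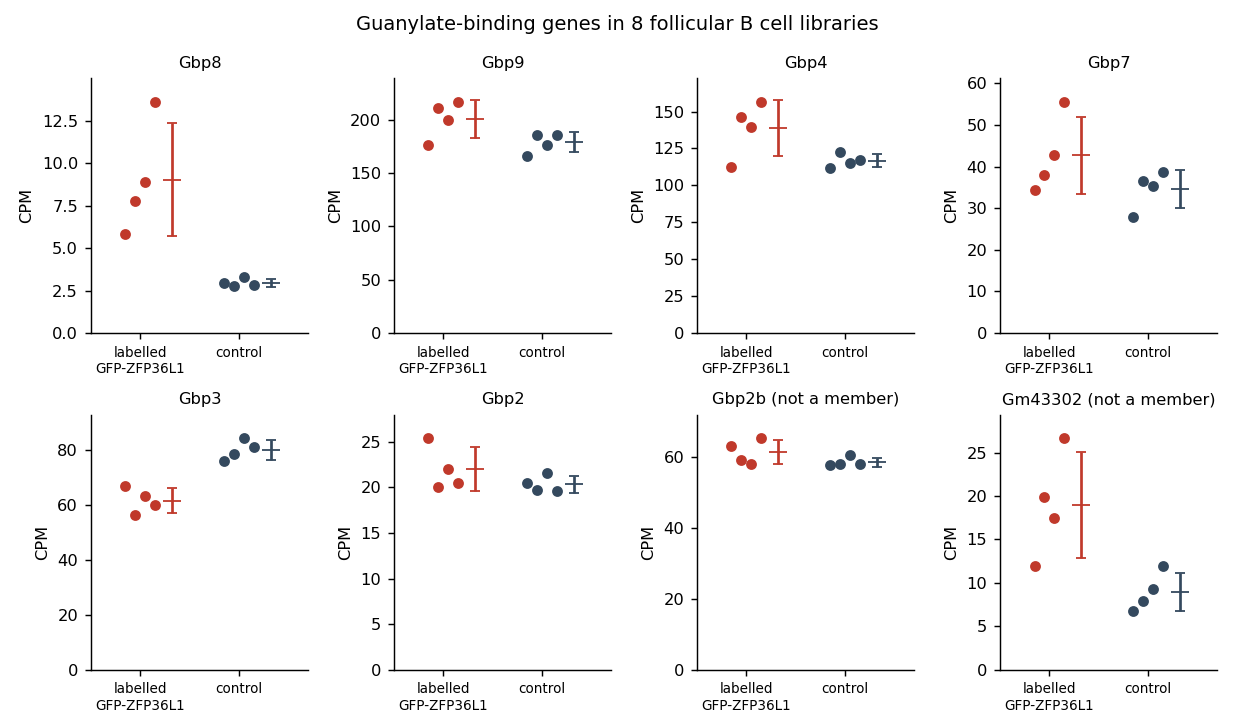
CPM of each gene by library, with libraries labelled GFP-ZFP36L1 left, controls right and bars for the mean ± SD of 4 libraries. Gbp8 lay at 5.85 to 13.6 CPM in the labelled libraries and 2.78 to 3.28 CPM in the controls, and Gbp3 at 56.2 to 66.8 and 76.0 to 84.2 CPM.

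Of the 6 members measured, 1 was called higher (Gbp8) and 1 lower (Gbp3), where 3.12% of all tested genes were called. In 2 of the 6 the ranges of the groups stayed apart, as they did in 11.2% of all tested genes. Because this comparison chose the members, nothing is read from these counts. In the 6 members the log2 fold change was positive in 5 and had a median of 0.21, while over all tested genes the median was -0.01 and 47.9% were positive. The sum over 8 genes of the family, the 6 measured members with Gbp2b and Gm43302, was 496, 558, 552 and 615 CPM in libraries labelled GFP-ZFP36L1 and 470, 512, 506 and 516 CPM in controls, so the groups overlapped. Within that sum of CPM, which is not per length, Gbp3 made up 11.2% ± 1.69 in the labelled libraries and 16.0% ± 0.567 in the controls, and Gbp8 made up 1.60% ± 0.446 and 0.590% ± 0.0552 (SD, n = 4 each).

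The authors' deposited table gave log2 fold changes of 0.88 for Gbp8, -0.35 for Gbp3, 0.21 for Gbp4, 0.22 for Gbp7, 0.15 for Gbp9 and 0.10 for Gbp2. These have the same signs as the values computed here, and that of Gbp8 is smaller than the 1.61 obtained from the counts.

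**Figure D3:**
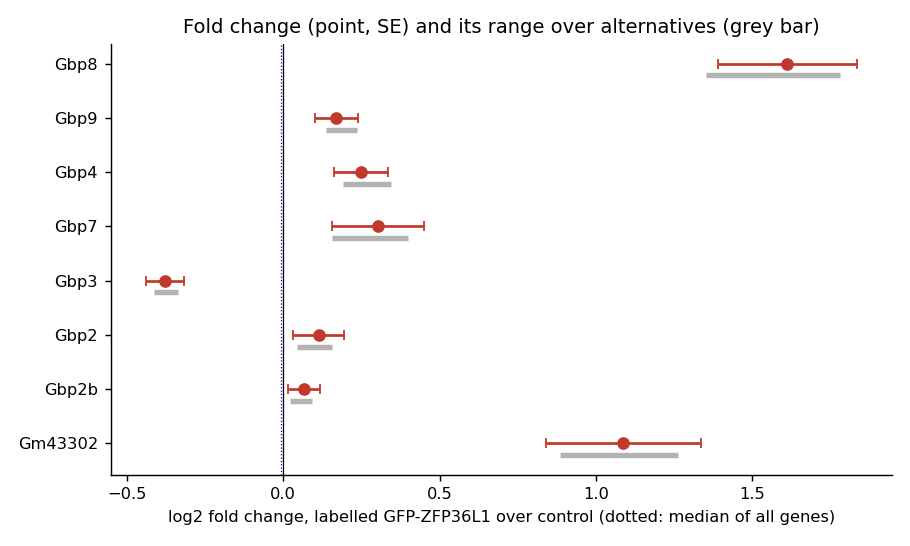
Log2 fold change of each gene, libraries labelled GFP-ZFP36L1 over controls, with its SE (point and bar) and its range over 18 alternative analyses (grey bar); the dotted line is the median of all genes. Gbp8 ranged from 1.35 to 1.78 and Gbp3 from -0.41 to -0.34.

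The sample titles number the libraries 1 to 8, odd for controls and even for the labelled libraries, and the labels do not say what the number stands for. The slope of log2 level per unit of this number, with genotype as a term, was not used to choose the members and was tested by edgeR's quasi-likelihood method, adjusted by Benjamini-Hochberg over all 13035 genes. Many genes had such a slope: 2709 or 20.8% were called, 1179 or 9.04% upward and 1530 or 11.7% downward. Of the 6 members, 2 were called upward and 0 downward, also in DESeq2 and limma voom, and 5 had a positive slope.

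Gbp7 rose with the title number by 0.09 ± 0.01 log2 units per step (SE, adjusted p = 0.00174). Its slope was 0.11 among the labelled libraries and 0.07 among the controls. Gbp8 rose by 0.12 ± 0.03 per step (adjusted p = 0.0335), with a slope of 0.19 among the labelled libraries and 0.00 among the controls, where no trend was visible. The difference between the slopes of the groups was not tested. The Gbp8 call was lost without labelled replicate 1 (adjusted p = 0.223), without labelled replicate 4 (0.342), without control replicate 2 (0.0567) and without control replicate 3 (0.0655). Both calls were lost when numbers 5 to 8 were set against 1 to 4, with adjusted p of 0.146 for Gbp7 and 0.175 for Gbp8.

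Gbp9 and Gbp4 had slopes of 0.03 ± 0.01 and 0.04 ± 0.02 per step that did not pass the test (adjusted p = 0.0710 and 0.122). Without control replicate 2, or without labelled replicate 2, Gbp9 passed it. Gbp3 had a slope of 0.00 ± 0.01 (adjusted p = 0.933) and Gbp2 one of -0.02 ± 0.02 (adjusted p = 0.323). Gbp2b, at 0.01 ± 0.01, did not pass either (adjusted p = 0.763). Gm43302 had a slope of 0.15 ± 0.02 per step, with 0.16 among the labelled libraries and 0.13 among the controls.

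**Figure D4:**
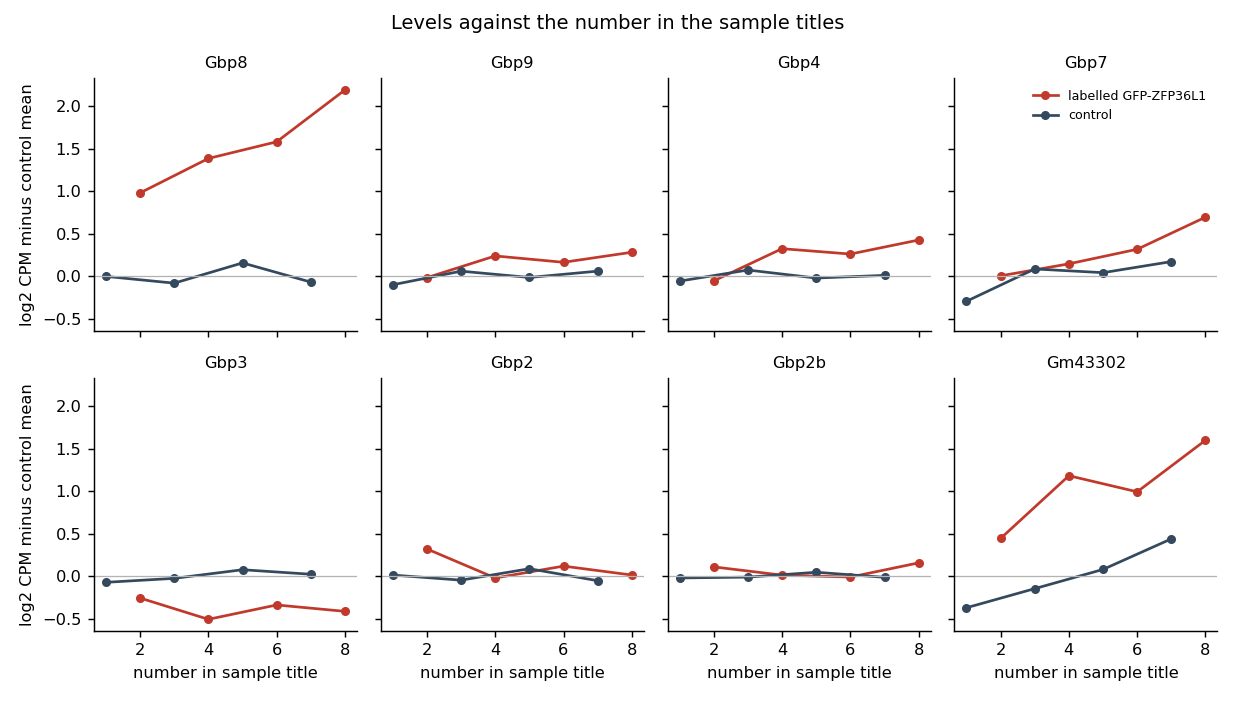
Log2 CPM minus the mean of the controls against the number in the sample title, for libraries labelled GFP-ZFP36L1 and controls. Gbp8 had a slope of 0.19 per step among the labelled libraries and 0.00 among the controls, while Gbp7 sloped upward in both, at 0.11 and 0.07.

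The upstream pathway was described by lists chosen for their roles. Of 11 genes for interferon receptors, their kinases and STATs, none was higher or lower in the libraries labelled GFP-ZFP36L1 by edgeR's quasi-likelihood method, adjusted by Benjamini-Hochberg, with a median log2 fold change of 0.01. At an unadjusted p under 0.05, 1 of them passed, and DESeq2 and limma voom called 0. Ifngr2, a chain of the interferon gamma receptor, stood at 86.4 ± 4.79 CPM against 94.7 ± 5.68 CPM in the controls (SD, n = 4 each), a log2 fold change of -0.13 ± 0.06 (SE, adjusted p = 0.265). Ifnar2, a chain of the type I receptor, had a log2 fold change of 0.12 ± 0.06 (SE, adjusted p = 0.296 in the same edgeR fit).

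Of 13 interferon regulatory factors and feedback regulators, 1 was higher and 1 lower in the labelled libraries. Over all tested genes, 1.83% were higher and 1.30% lower. Irf7, a driver of type I interferon responses, rose to 81.4 ± 15.8 CPM against 53.1 ± 2.98 CPM in the controls, a log2 fold change of 0.62 ± 0.12 (SE, adjusted p = 0.0255 in edgeR). Irf8, a regulator of B cell and myeloid development, fell to 418 ± 31.8 CPM against 509 ± 22.6 CPM (log2 fold change -0.28 ± 0.07, adjusted p = 0.0456 in edgeR). Each of these calls was lost in 7 of 18 alternatives. Irf7 lost it without control replicates 1, 2, 3 or 4 or labelled replicate 2, and Irf8 without any 1 library other than labelled replicate 1. Irf1, which induces guanylate-binding genes, averaged 186 ± 17.6 CPM in libraries labelled GFP-ZFP36L1 and 179 ± 17.6 CPM in controls. It fell with the title number by 0.05 log2 units per step (adjusted p = 0.00512 in edgeR). Of all tested genes, 11.7% were called downward with that number. Irf1 is given here after its values were seen.

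Among the relatives of the family, the immunity-related GTPases and giant GTPases, 2 of 15 tested genes were higher in the labelled libraries and none lower. All 15 had a positive log2 fold change, with a median of 0.23. Over all tested genes, 1.83% were called higher and 47.9% had a positive log2 fold change. Irgm2, which restrains other immunity-related GTPases at host membranes, rose to 73.8 ± 5.07 CPM against 57.0 ± 1.97 CPM in the controls, a log2 fold change of 0.37 ± 0.06 (SE, adjusted p = 0.00810 in edgeR). Gm12250, a GTPase gene of the same family, rose to 24.9 ± 1.03 CPM against 18.8 ± 1.47 CPM (log2 fold change 0.41 ± 0.07, adjusted p = 0.0128 in edgeR). Both kept their call in 18 of 18 alternatives. Without labelled replicate 1, 5 genes of this list were called, and DESeq2 and limma voom each called 4. Calls over all genes also rose in these settings, from 407 to 948, 895 and 1064 in that order.

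Of 34 type I interferon-stimulated genes, 4 were higher and none lower, 33 had a positive log2 fold change, and the median was 0.45. Over all tested genes, 1.83% were called higher and 47.9% had a positive log2 fold change. Ifit1bl2, of the family of interferon-induced proteins with tetratricopeptide repeats, rose to 4.84 ± 1.44 CPM against 1.47 ± 0.255 CPM in the controls (log2 fold change 1.72 ± 0.22, adjusted p = 0.0038 in edgeR) and kept its call in all 18 alternatives. Ifit1bl1 rose by 0.45 ± 0.08, Rtp4 by 0.52 ± 0.11 and Ifit1 by 0.96 ± 0.21 on the log2 scale (adjusted p = 0.0187, 0.0284 and 0.0392 in edgeR). Of 18 alternatives, Ifit1bl1 kept its call in 15, Rtp4 in 12 and Ifit1 in 8. The count of 4 became 17 without labelled replicate 1 and 1 without control replicate 2, control replicate 3 or labelled replicate 3. It was 2 without labelled replicate 2 or control replicate 4, 12 in DESeq2 and 10 in limma voom. The 407 calls over all genes also moved, to 948 without labelled replicate 1 and 79 without control replicate 3. They were 895 in DESeq2 and 1064 in limma voom.

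The 14 tested interferon gamma-induced genes other than GTPases had none higher or lower in edgeR, with a median log2 fold change of -0.02, and 4 passed an unadjusted p under 0.05. DESeq2 called 1 of them higher and limma voom 1 lower. Cd274, the gene of the checkpoint ligand PD-L1, had 74.7 ± 5.98 CPM against 65.5 ± 2.21 CPM in the controls (adjusted p = 0.120 in edgeR). Ciita, the master activator of MHC class II genes, had 549 ± 21.5 CPM against 624 ± 43.3 CPM (adjusted p = 0.166 in edgeR). With the title number, for which 20.8% of all genes were called, 1 of the 14 rose and 5 fell, while 10 of the 34 type I interferon-stimulated genes rose and 0 fell. The counts of 10 and 5 were both 0 when numbers 5 to 8 were set against 1 to 4. With 1 library left out they ran from 0 to 15 and from 1 to 6, with both lowest values reached without labelled replicate 4 and the 0 also without labelled replicate 1.

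The genes downstream of guanylate-binding proteins and those that place them on membranes were also measured. Of 7 inflammasome genes, 12 ubiquitin-like conjugation genes, 9 prenylation enzymes and 8 other dynamin-related GTPases, edgeR called none in either direction, with 0, 1, 0 and 2 at an unadjusted p under 0.05. DESeq2 called 1 dynamin-related gene and limma voom 2, and both called 0 in the other 3 lists. Aim2, the DNA sensor of an inflammasome, averaged 115 ± 8.83 CPM in libraries labelled GFP-ZFP36L1 and 119 ± 4.79 CPM in controls. Gabarapl1, a ubiquitin-like protein of autophagy, had 7.55 ± 1.49 CPM against 5.62 ± 0.412 CPM in the controls. Rabggtb, a prenylation enzyme subunit, had 39.9 ± 1.75 CPM against 44.0 ± 3.77 CPM in the controls. Mfn2, a mitochondrial fusion GTPase, had 75.8 ± 0.795 CPM against 67.8 ± 3.20 CPM in the controls. Among the 10 tested genes flanking the clusters edgeR, DESeq2 and limma voom called 0, and 0 passed an unadjusted p under 0.05 in edgeR. Lrrc8b and Gtf2b, with the smallest p of these, had adjusted p of 0.358 and 0.362 in edgeR.

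**Figure D5:**
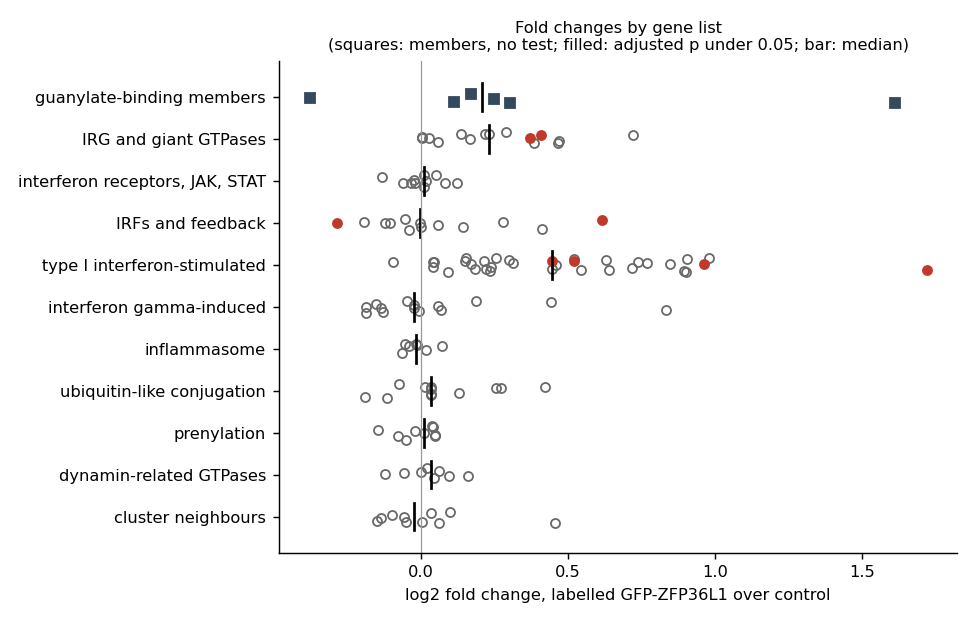
Log2 fold change of each tested gene by list, libraries labelled GFP-ZFP36L1 over controls; squares are the guanylate-binding members, filled circles genes with an adjusted p under 0.05, and bars list medians. The median was 0.45 for type I interferon-stimulated genes, 0.23 for immunity-related and giant GTPases, 0.21 for the members and -0.02 for other interferon gamma-induced genes.

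The genes whose profile over the 8 libraries lay nearest that of Gbp8, among 8872 genes of at least 5 CPM, were Kif13a at a root mean square distance of 0.147 log2 units, Myof at 0.241, Trim30c at 0.314, Rtl5 at 0.353 and Rsad2 at 0.372. The median distance over all compared genes was 0.842. Kif13a, a kinesin motor gene, had 9.37 ± 2.99 CPM in the libraries labelled GFP-ZFP36L1 and 3.17 ± 0.179 CPM in the controls. Near to Gbp3 were Strn4 at 0.0595, Cdkl1 at 0.0638, Man1a at 0.0678 and Pim1 at 0.0717, with a median of 0.218 over all genes. Strn4, which encodes a striatin, averaged 109 ± 6.15 CPM in libraries labelled GFP-ZFP36L1 and 139 ± 2.34 CPM in controls. The root mean square of each profile about its own mean was 0.830 for Gbp8 and 0.205 for Gbp3, near those medians. Matching ran over all 8 libraries and so included the group difference that chose Gbp8 and Gbp3. Group differences of the near genes in the same direction therefore follow from the matching. All these genes share the libraries and their depth with the members, and the distances carry no test.

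Markers of the sorted cells and of other cells were measured beside these values. The summed level of 10 follicular B cell markers was 15278 to 17444 CPM in the libraries labelled GFP-ZFP36L1 and 17892 to 18861 CPM in the controls, so the groups did not overlap. Of these markers 0 were higher in edgeR, and Pax5 and Ighd were among the lower ones (adjusted p = 0.0405 and 0.0493), calls that were each lost without some single libraries. The 10 T cell markers summed to 33.9 to 34.9 CPM in the labelled libraries and 31.9 to 34.9 CPM in the controls, nearly all of it Lck, while Cd3d, Cd3e and Cd3g were at or below 0.14 CPM in every library. Monocyte and macrophage markers summed to 10.2 to 12.6 CPM in the labelled libraries and 11.4 to 12.8 CPM in the controls, of which Itgam rose to 3.41 ± 0.725 CPM against 1.96 ± 0.335 CPM in the controls (adjusted p = 0.0395 in edgeR), a call lost without any 1 library other than labelled replicate 1. Adgre1 of the same list averaged 1.73 ± 0.650 CPM against 3.21 ± 0.574 CPM in the controls (adjusted p = 0.0815 in edgeR), and it passed in 5 of 18 alternatives. Natural killer cell markers summed to 2.20 to 3.83 CPM in the labelled libraries and 2.12 to 2.71 CPM in the controls, with Ncr1, Nkg7, Gzma and Gzmb at 0 in all 8 libraries. Dendritic cell markers summed to 5.61 to 6.78 CPM in the labelled libraries and 4.55 to 6.81 CPM in the controls. Plasma cell markers summed to 549 to 598 CPM in the labelled libraries and 524 to 545 CPM in the controls, with none of the 7 called. Nearly all of that sum was Irf4, Mzb1, Xbp1 and Slamf7. Jchain had 0.780 to 1.15 CPM in the labelled libraries and 1.13 to 2.36 CPM in the controls. Prdm1 went the other way, with 1.82 to 2.90 CPM and 1.15 to 1.71 CPM. Neutrophil markers summed to 0.414 to 0.472 CPM in the labelled libraries and 0.167 to 0.404 CPM in the controls, without overlap, as for the plasma cell sum. Of the 7 neutrophil markers, 0 passed the filter on low counts. Erythroid markers summed to 3.66 to 8.43 CPM in the labelled libraries and 2.45 to 13.4 CPM in the controls. The part of the follicular and other marker differences in the members' values was not tested.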

How the data were processed

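Per the labels, the mRNA kit was stranded and reads were paired, of 100 bp. The submitters' processing notes name build GRCm38 and the tools DESeq2 1.10.1, HTSeq, TopHat2 2.0.12 and Trim Galore. Settings, annotation release and the strand setting of the counting are not given in the sources used here. Raw counts were deposited by the authors for 43629 genes, the basis of every test, with normalized values, a signal equal to the count over 1 constant per library and used only for that check. The authors' deposited comparison table holds a mean signal, log2 fold changes and p-values per gene, of which its log2 values are quoted. GENCODE mouse release 21 gave symbols, exons and 3' UTRs, and RefSeq the promoters. All 8 count columns were matched to libraries by title.

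Tests ran in edgeR 4.0.16 under R 4.3.3 (filterByExpr, TMM, robust quasi-likelihood test, Benjamini-Hochberg over 13035 genes). The code was also run on simulated counts drawn for each gene independently. That run is no check on trends that genes share in these libraries. Log2 CPM used a prior count of 2. Members and lists were chosen with earlier results of these data known. The members, Gbp2b, Gbp10, Gbp11 and the label checks were always named, with the called genes of each list, or the 2 with the smallest p, up to 4, and the 5 nearest profiles to Gbp8 and Gbp3. Alternatives were DESeq2 1.42.0, limma 3.58.1 voom, other scalings and filters, no robust prior, removal of immunoglobulin segments, the title number as a term, 1 surrogate variable (sva 3.50.0), numbers 5 to 8 against 1 to 4, and each library left out. Expression of Gbp5, Gbp6 and Gbp10 was not analysed here. Some genes that the naming rule takes are not reported here.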

Additional observations from a re-analysis of the deposited data

Results flagged for a closer look

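Gbp2b in the control libraries was the 1 result of 16 groups examined in which a single library stood apart: control replicate 3, at 60.4 CPM, lay apart from the other 3 controls at 57.7 to 58.1 CPM. Its gap was 0.857 of the group's whole range, above Dixon's 95% critical value for 4 libraries. The difference is small in size, and chance picks out about 1 in 20 groups.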

How the results depend on the processing

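No paired analysis was possible because the labels give the groups no shared replicate numbers; the titles number the libraries 1 to 8. Over 18 alternatives the sign of the log2 fold change was kept by all 6 members: Gbp8 ranged from 1.35 to 1.78, Gbp3 from -0.41 to -0.34, Gbp4 from 0.19 to 0.35, Gbp7 from 0.16 to 0.40, Gbp9 from 0.14 to 0.23 and Gbp2 from 0.05 to 0.16. Members called numbered 2 to 4 with 1 library left out, and 4 came without GFP-ZFP36L1 replicate 1, where calls over all genes also rose, to 948. Because this comparison chose the members, their ranges and calls are a description and carry no test. The genes called between the groups, 407, became 895 in DESeq2, 1064 in limma voom, 1030 with the title number as a term and 1318 with 1 surrogate variable, and 79 to 948 with 1 library left out; each of the 8 libraries moved the count by over 1.5 times. The cause was not tested. For the title number slope, 2709 genes became 44 when numbers 5 to 8 were set against 1 to 4 and 642 to 2935 with 1 library left out. That coding called 0 members, and 1 to 3 were called with 1 library left out. The Gbp7 slope kept its call in 14 of 15 alternatives and that of Gbp8 in 10. Gbp8 rests on 114 to 138 counts in the controls, which limits its precision there.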
